A study of Mus musculus with 9 samples.

Results

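Cholesterol synthesis was followed through 7 genes, picked by symbol from the 23799 genes of the deposited expression table: Idi1, Fdps, Fdft1, Sqle, Lss, Cyp51 and Dhcr7. All 7 were in the table once each and all 7 passed the filter on low values. They were measured by RNA sequencing in 9 libraries of fluorescence-sorted mouse tumour cells. YFP-positive cells of pancreatic ductal adenocarcinoma (PDAC) came from mice whose label includes p48-Cre, p53F/+ and ROSA-LSL-YFP, in which a Cre driver of the pancreatic lineage acts on floxed p53 and on a YFP reporter. There were 2 PDAC liver metastases (numbers 1 and 5), 1 PDAC lung metastasis (number 1) and 2 PDAC primary tumours (numbers 1 and 5). Number 1 carries SIRT6F/F in addition and an age of 25.67 weeks, whereas number 5 has an age of 28.95 weeks and no SIRT6 allele in its label, so age and the SIRT6 label cannot be told apart from the animal. By these labels the 5 PDAC libraries come from 2 animals, and libraries of the same number are not independent. Breast cancer (BC) was represented by GFP-positive cells derived from 4T1-eGFP, a single mouse mammary carcinoma line carrying a fluorescent label, at 28 days: 2 lung metastases (numbers 4 and 6) and 2 primary tumours (numbers 1 and 5). The submitters call the models orthotopic. Tumour type, fluorophore, time and origin (mutant mice or a cell line) differ together and cannot be told apart.

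Animal cells build cholesterol from acetyl-CoA through mevalonate and a chain of isoprenoid units, and the early part of the chain also feeds protein prenylation. Idi1 isomerises the basic isoprenoid unit, Fdps joins units to farnesyl diphosphate, and Fdft1 (squalene synthase) commits farnesyl diphosphate to sterols. Sqle then epoxidises squalene, Lss closes it to lanosterol, Cyp51 removes a methyl group from lanosterol, and Dhcr7 carries out a terminal reduction to cholesterol. When membrane sterol is low, SREBP-2, the product of Srebf2, is released from the endoplasmic reticulum and raises transcription of these enzymes. SREBP-2 commonly acts at a sterol regulatory element (SRE) close to a CCAAT box that binds NF-Y.

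The promoters are shown because this shared control is what the 7 genes are known for. RefSeq windows on build GRCm38.p6 were found for 4 of the 7 genes. The 250 bases before each RefSeq start were searched on both strands for an SRE core written TCACCNCA, which 3.61% of all 32851 windows held, and for the box CCAAT, which 33.8% held. GGGCGG, the core of an Sp1 site, was searched too and is not marked; 32.7% of all windows held it, as did 5 of the 6 windows of the 4 genes. The stretches below give the last 150 bases before the start, 5′ to 3′ on the gene's strand, with SRE core and CCAAT matches (ATTGG on the other strand) in capitals.
Cyp51, chr5:4104698-4104847, minus strand: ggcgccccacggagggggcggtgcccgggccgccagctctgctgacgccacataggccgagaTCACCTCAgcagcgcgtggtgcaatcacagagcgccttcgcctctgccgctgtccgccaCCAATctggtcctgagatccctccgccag
Dhcr7, chr7:143830064-143830213, plus strand: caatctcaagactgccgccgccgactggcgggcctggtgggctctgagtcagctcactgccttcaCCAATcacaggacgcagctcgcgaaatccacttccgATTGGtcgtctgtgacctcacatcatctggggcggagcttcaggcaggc
Lss, chr10:76531455-76531604, plus strand: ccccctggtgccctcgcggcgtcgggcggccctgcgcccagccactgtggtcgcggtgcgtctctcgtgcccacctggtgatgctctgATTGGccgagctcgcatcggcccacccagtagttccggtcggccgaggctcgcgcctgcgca
Idi1, chr13:8885456-8885605, plus strand: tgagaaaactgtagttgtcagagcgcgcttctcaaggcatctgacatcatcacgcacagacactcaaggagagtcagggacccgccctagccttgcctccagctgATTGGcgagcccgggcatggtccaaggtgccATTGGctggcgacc
Cyp51 held an SRE core match 81 bases before its start and a CCAAT match 25 bases before it, a combination found in 1.11% of all windows. No SRE core match was found in any window of Lss, Idi1 or Dhcr7, and Sqle, Fdft1 and Fdps had no window to search. Lss held 1 CCAAT match, 58 bases before its start, and Idi1 held 2, at 41 and 10 bases. Of the 3 RefSeq starts of Dhcr7, the one shown held 2 CCAAT matches, at 81 and 45 bases, and the others held none. A match is a run of letters and not a measured binding site.

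Libraries differed widely in depth and in the number of genes seen. Reads on genes, estimated from the values, ranged from 21300000 to 127900000, and genes above 0 from 9530 to 20478. The 3 libraries with the fewest genes were the PDAC lung metastasis (9530), PDAC primary 5 (10410) and BC lung metastasis 6 (10938). In them 47.9, 47.5 and 50.5% of the 12832 tested genes reached 1 RPKM (reads per kilobase of gene, scaled to a total for each library), against 63.3 to 83.4% in the other 6. Differences of the 7 genes are therefore also given without these libraries, except for the PDAC lung metastasis, which is one of them. The 6 markers of tumour epithelium (Krt8, Krt18, Krt19, Epcam, Cdh1 and Cldn4) summed to 124 to 15200 RPKM in PDAC libraries and 2900 to 5620 RPKM in BC libraries. They were lowest in the PDAC lung metastasis (124 RPKM) and PDAC liver metastasis 5 (229 RPKM), and Cdh1 was listed at 0 in the PDAC lung metastasis and in BC lung metastasis 6. In such bulk samples fewer tumour cells and less RNA per cell cannot be told apart.

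Fdps was the most abundant of the 7 genes per kilobase in all 9 libraries. It was at 261 and 58.9 RPKM in PDAC liver metastases 1 and 5, 82.1 RPKM in the PDAC lung metastasis and 114 and 39 RPKM in PDAC primaries 1 and 5. In BC it was at 103 and 153 RPKM in lung metastases 4 and 6 and at 77.5 and 226 RPKM in primaries 5 and 1. PDAC and BC libraries overlapped, and the lowest and highest library differed by a factor of 6.69. Fdps alone made up 80.2 to 99.7% of the summed RPKM of the 7 genes in PDAC libraries and 50.7 to 78.3% in BC libraries. Other annotated genes resemble its transcript: 6 matched it over at least 200 bases at 90% identity or more, and 5 of them at 95% or more. The 3 of these that the table lists, all processed pseudogenes, were at 1.21 RPKM or less in every library, and how reads shared with Fdps were counted is not given in the sources used here.

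**Figure D1:**
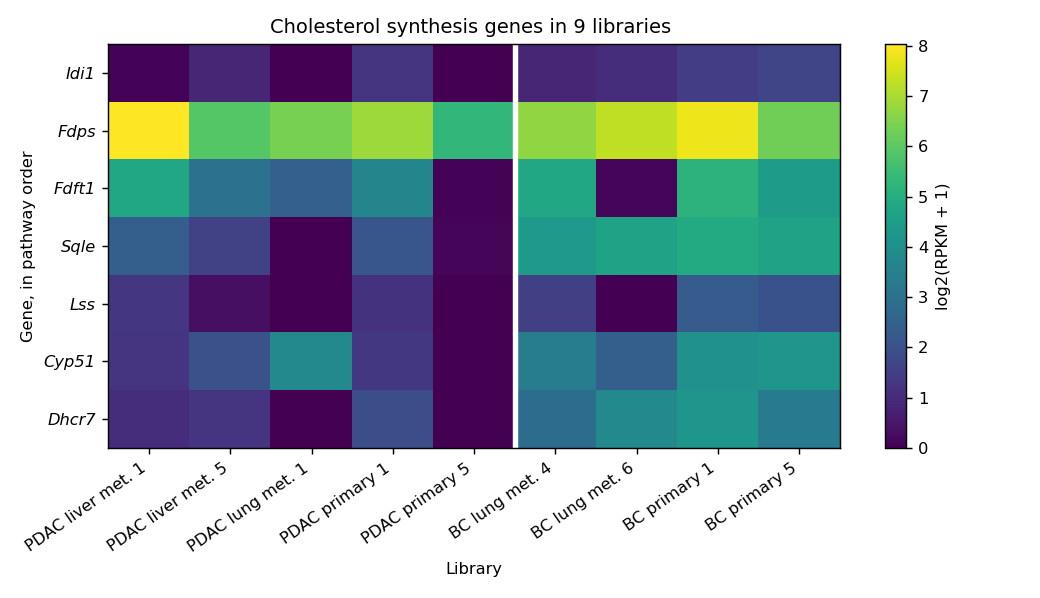
Expression of the 7 genes (rows, in pathway order) in 9 libraries (columns; PDAC left of the white line, BC right of it), coloured by log2(RPKM + 1). Fdps is bright in every column, from 39 to 261 RPKM, while the other 6 genes are near 0 in PDAC primary 5 and are seen unevenly in the PDAC lung metastasis and BC lung metastasis 6.

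Sqle separated the models. Its value was 4.43 and 2.03 RPKM in PDAC liver metastases 1 and 5, 0.0141 RPKM in the PDAC lung metastasis and 3.47 and 0.0806 RPKM in PDAC primaries 1 and 5. BC lung metastases 4 and 6 had 19.4 and 23.9 RPKM and BC primaries 1 and 5 had 29 and 23.5 RPKM. Every PDAC library was below every BC library, among the metastases as among the primary tumours. Sqle averaged 2.01 ± 1.98 RPKM in PDAC (SD, n = 5) and 24 ± 3.91 RPKM in BC (SD, n = 4). The difference on log2(RPKM + 1), with site as a covariate, was -3.36 ± 0.82 (SE; limma adjusted p = 0.0458 over 12832 genes, lower in 5 of 5 PDAC libraries), and Sqle was the only one of the 7 that fell by this test. In this comparison 2.97% of all tested genes were called, 1.84% lower and 1.13% higher, and 6.23% lay apart on the lower side as Sqle did. Rescaling without haemoglobin changed that split to 426 genes lower and 113 higher, against 236 and 145. The call is close to the threshold: it held in 5 of 16 alternatives, was lost at a pseudocount of 0.1 (adjusted p = 0.144) and without the filter (0.0803), and without any 1 library other than PDAC primary 5 (0.0501 to 0.155). Without the 3 libraries with the fewest genes the difference was -2.47 ± 0.55 (limma adjusted p = 0.0318). That fit called 1145 of 12259 genes, against 381 of 12832 with all libraries. The test counts the 5 PDAC libraries as separate samples although they share 2 animals. With the PDAC number as a block the call was lost (-3.43 ± 0.82, limma adjusted p = 0.0542). With 1 mean log2 value per PDAC number and no site term it held (-3.43 ± 0.59, n = 2 against 4, limma adjusted p = 0.0128), in a fit that takes these means to vary like single BC libraries. The same fit called 1288 of 12832 genes.

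The lowest Sqle values rested on few reads. Multiplied by gene length and divided by the value of a read, 0.0141 RPKM in the PDAC lung metastasis came to 1 read and 0.0806 RPKM in PDAC primary 5 to 14 reads. The same 2 libraries had an estimated 4420 and 5130 reads on Fdps. Set against Fdps within each library, which removes the scaling of the library, Sqle stood at 1.7, 3.44, 0.0172, 3.06 and 0.207% of the Fdps RPKM in PDAC liver metastases 1 and 5, the lung metastasis and primaries 1 and 5. It stood at 18.9 and 15.6% for BC lung metastases 4 and 6 and at 12.8 and 30.3% in BC primaries 1 and 5. The PDAC and BC libraries did not overlap on this ratio either. The ratio uses the same Sqle values, so it is not a separate observation. How many of all genes lay apart on such a ratio was not counted.

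Dhcr7 had a like order. It was at 1.07 and 1.29 RPKM in PDAC liver metastases 1 and 5, listed at 0 in the PDAC lung metastasis, and at 2.85 and 0.00844 RPKM in PDAC primaries 1 and 5. In BC, lung metastases 4 and 6 had 6.2 and 12.9 RPKM, and primaries 1 and 5 had 17.8 and 8.68 RPKM. PDAC and BC again did not overlap. The log2 difference was -2.66 ± 0.74 (SE, n = 5 against 4) and missed the threshold (limma adjusted p = 0.0769, 0.0324 to 0.223 over 16 alternatives). Without the 3 libraries with the fewest genes it was smaller and did not pass either (-1.77 ± 0.60, adjusted p = 0.106). It passed in 2 alternatives, when the libraries were rescaled without haemoglobin genes (-3.05 ± 0.72, limma adjusted p = 0.0324) and with 1 mean per PDAC number (-2.74 ± 0.71, limma adjusted p = 0.0419). These fits called more of the 12832 genes, 539 and 1288, against 381 without these changes. Sqle and Dhcr7 were the 2 of 7 genes whose PDAC and BC libraries lay apart, as 6.23% of all genes did on the lower side. They were also the 2 with an unadjusted p under 0.05, which 12.1% of all genes had on that side. Over the 9 libraries the log2 values of these 2 genes correlated at 0.97, so they do not count as separate observations.

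**Figure D2:**
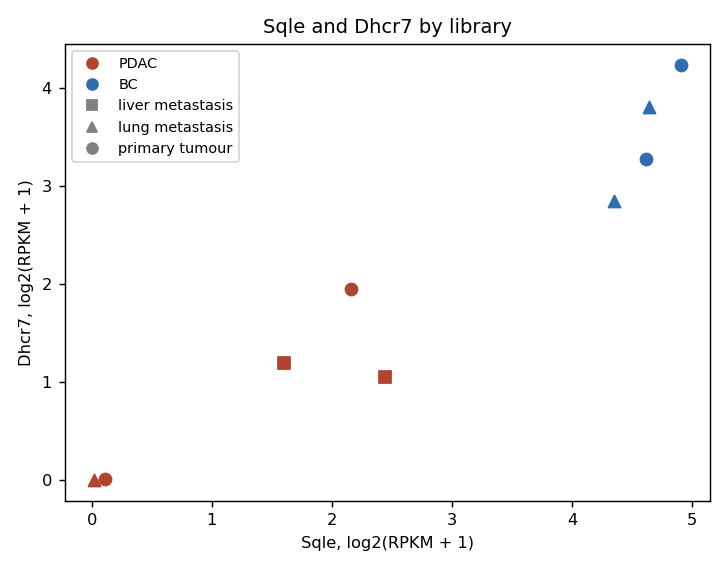
Sqle (horizontal) against Dhcr7 (vertical), both as log2(RPKM + 1), with 1 point per library, red for PDAC and blue for BC, with squares for liver metastases, triangles for lung metastases and circles for primary tumours. The 4 BC libraries lie above 6 RPKM Dhcr7 and 19 RPKM Sqle, and the PDAC lung metastasis and PDAC primary 5 lie next to the origin.

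Cyp51 lay below all BC libraries in 4 of 5 PDAC libraries. It was at 1.38 and 2.96 RPKM in PDAC liver metastases 1 and 5, 12.8 RPKM in the PDAC lung metastasis and 1.49 RPKM in PDAC primary 1. PDAC primary 5 listed it at 0. BC lung metastases 4 and 6 had 9.34 and 4.43 RPKM and BC primaries 1 and 5 had 15.7 and 17.6 RPKM. The lung metastasis, where Sqle came to 1 read, held an estimated 722 reads of Cyp51. The log2 difference of PDAC from BC was -1.89 ± 0.89 (SE, n = 5 against 4; limma adjusted p = 0.26) and did not pass. Without the 3 libraries with the fewest genes it was -2.29 ± 0.61 (limma adjusted p = 0.0545).

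The other 4 genes had negative differences between PDAC and BC that did not pass. They were -0.81 ± 1.23 for Fdft1, -0.56 ± 0.58 for Fdps, -0.78 ± 0.45 for Idi1 and -0.84 ± 0.57 for Lss (SE, n = 5 against 4; limma adjusted p = 0.351 to 0.751). Their 95% intervals ran from -3.46 to 1.85 for Fdft1, from -1.82 to 0.70 for Fdps, from -1.74 to 0.19 for Idi1 and from -2.07 to 0.38 for Lss, so a difference of several fold was not detectable for Fdft1. All 7 genes were thus on the lower side in PDAC, with a median of -0.84, where the median over all tested genes was -0.21 and 42.5% of them were on the higher side. All 7 were also negative with quantile scaling and when rescaled without haemoglobin, which put the median of all genes at -0.02 and -0.59. Without the 3 libraries with the fewest genes Fdps turned to 0.02, while Fdft1 was at -1.01, Idi1 at -0.36 and Lss at -0.86. Fdft1 turned to 0.22 without PDAC primary 5.

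**Figure D3:**
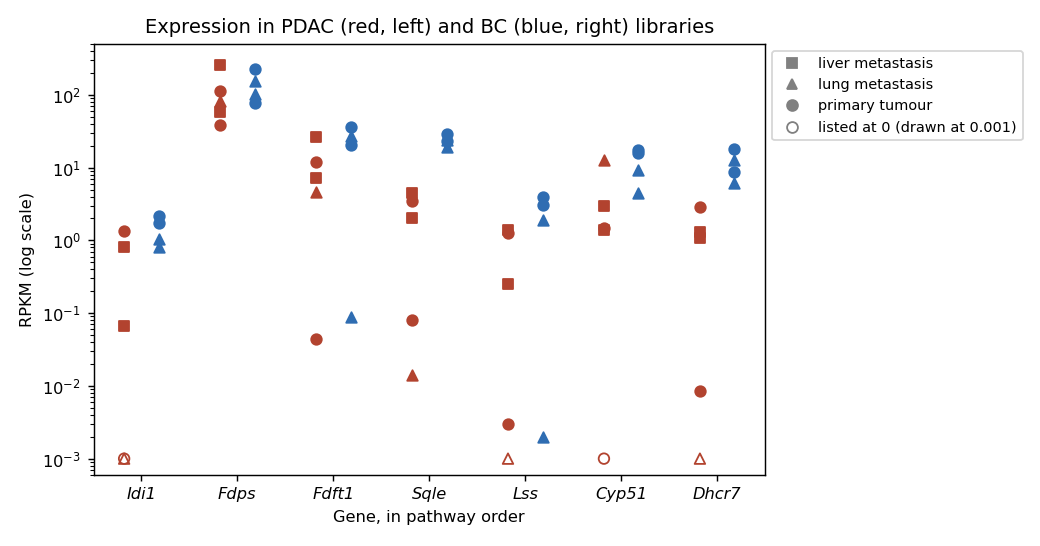
RPKM of each gene on a log scale, with PDAC libraries in red on the left and BC libraries in blue on the right of each gene and symbols for the site. Open symbols at 0.001 stand for values listed at 0. The red and blue points are apart for Sqle and Dhcr7 and overlap for the other 5 genes.

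Summed macrophage and hepatocyte markers lay apart between the models, while those of the other cell types read overlapped. PDAC primary 5 lay within the BC range for the erythroid share. It lay below BC for neutrophil markers (12.9 RPKM, against 67.9 to 2320 RPKM in BC). It also did so for B and plasma cell markers (2.02 RPKM, against 6.95 to 51.4 RPKM in BC). The 8 macrophage markers in the table summed to 768 to 11100 RPKM in PDAC and 298 to 611 RPKM in BC, with Csf1r and Emr1 listed at 0 in PDAC primary 5 and BC lung metastasis 6. The 5 erythroid markers in the table accounted for 39.1 and 20.3% of all RPKM in PDAC liver metastases 1 and 5, 38.9% in the PDAC lung metastasis, 11.0% in PDAC primary 1 and 0.0582% in PDAC primary 5, against 0.00612 to 0.107% in BC. The 8 hepatocyte markers summed to 954 and 2390 RPKM in PDAC liver metastases 1 and 5 and to 0.0917 to 0.237 RPKM in BC. They summed to 1.23 RPKM in the PDAC lung metastasis and to 1.91 and 248 RPKM in PDAC primaries 1 and 5. The sums of the lung metastasis and primary 1 were near the floor, and Alb was listed at 0 in the lung metastasis and primary 5. PDAC primary 5 had the highest epithelial sum (15200 RPKM) and the lowest erythroid and macrophage sums of the PDAC libraries, and its values of Sqle, Dhcr7 and Cyp51 were among the 2 lowest of all libraries. It is also one of the 3 libraries with the fewest genes, with 47.5% of the tested genes at 1 RPKM or more. The part of this low detection was not tested. The part of the other cells in the difference between the models was not tested.

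Fdft1, Lss and Idi1 were detected unevenly in both models. Fdft1 was at 26.6 and 7.22 RPKM in PDAC liver metastases 1 and 5, 4.57 RPKM in the PDAC lung metastasis and 11.8 and 0.0446 RPKM in PDAC primaries 1 and 5. BC lung metastases 4 and 6 had 27 and 0.0898 RPKM, and BC primaries 1 and 5 had 35.7 and 20.4 RPKM. Relative to Fdps, it stood at 5.56 to 12.3% in PDAC libraries other than primary 5 (0.115%) and at 15.8 to 26.3% in BC libraries other than lung metastasis 6 (0.0586%). Its annotated exons share 774 bases with Ctsb, a lysosomal protease gene on the opposite strand, and the library kit does not mark strand. Ctsb had 281 RPKM in PDAC primary 5 and 124 RPKM in BC lung metastasis 6, the libraries where Fdft1 was lowest, and 895 RPKM in PDAC liver metastasis 1. How much of the Fdft1 value came from Ctsb was not tested.

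Lss was at 1.39 and 0.255 RPKM in PDAC liver metastases 1 and 5, listed at 0 in the PDAC lung metastasis and at 1.27 and 0.00296 RPKM in PDAC primaries 1 and 5. In BC it was at 1.89 and 0.00198 RPKM in lung metastases 4 and 6 and at 3.97 and 3.05 RPKM in primaries 1 and 5. The values of 0.00296 and 0.00198 RPKM each came to an estimated 1 read. Idi1 reached at most 1.33 RPKM in PDAC (primary 1) and 2.18 RPKM in BC (primary 5). It was at 0.066 and 0.808 RPKM in PDAC liver metastases 1 and 5 and listed at 0 in the PDAC lung metastasis and PDAC primary 5. BC lung metastases 4 and 6 had 0.803 and 1.06 RPKM of Idi1 and BC primary 1 had 1.74 RPKM. With both genes at a few RPKM at most, a pseudocount of 1 keeps their log2 differences small.

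The 3 libraries with the fewest genes lacked different members. PDAC primary 5 reached 1 RPKM for Fdps alone. The PDAC lung metastasis did so for Fdps, Cyp51 and Fdft1 and listed Idi1, Lss and Dhcr7 at 0. BC lung metastasis 6 did so for 5 genes and was near 0 for Fdft1 and Lss, while its Sqle, Dhcr7 and Fdps lay within the range of the BC primaries. In the other 6 libraries 5 to 7 of the genes reached 1 RPKM.

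BC lung metastases were next set against BC primary tumours. All 7 genes had negative log2 differences, from -2.34 ± 1.70 for Fdft1 to -0.08 ± 0.89 for Fdps (SE, n = 2 against 2), and 0 passed (limma adjusted p = 0.974 to 1). Limma called 0% of all genes here and 2.07% had an unadjusted p under 0.05, which none of the 7 had. The median over the 7 was -0.61 and over all tested genes -0.29. Idi1, Lss and Cyp51 were lower in both metastases than in both primaries, which 27% of all tested genes were, while none of the 7 was higher in both, which 15.8% were. Idi1 turned to 0.30 with quantile scaling. Sqle in metastases 4 and 6 (19.4 and 23.9 RPKM) overlapped the primaries (29 and 23.5 RPKM), with a difference of -0.26 and an interval from -2.77 to 2.25. The Fdft1 difference rested on metastasis 6: without it the difference was 0, and metastasis 4 (27 RPKM) lay between the primaries. Lss, at -1.40 ± 0.81, went to -0.64 ± 0.91 without metastasis 6, and the median over all genes to -0.02. All 7 genes stayed at or below 0 without it, with a median of -0.64. The 6 neutrophil markers summed to 2320 and 1490 RPKM in BC lung metastases 4 and 6, against 67.9 and 93.9 RPKM in BC primaries 1 and 5. The 5 lung epithelium markers (Sftpc, Sftpb, Sftpa1, Scgb1a1 and Ager) summed to 28.8 and 25.2 RPKM in these metastases, where metastasis 6 listed Sftpb and Ager at 0, against 0.784 and 0.774 RPKM in BC primaries 1 and 5. The part of these cells was not tested.

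PDAC liver metastases were compared with PDAC primary tumours in the same fit. Of the 7 genes 0 passed (limma adjusted p = 0.892 to 1, where 0.00779% of all genes were called) and 0 had an unadjusted p under 0.05, which 6.4% of all genes had. Log2 differences were 2.04 ± 1.70 for Fdft1, 0.96 ± 1.08 for Cyp51, 0.89 ± 0.89 for Fdps, 0.88 ± 1.13 for Sqle, 0.20 ± 0.81 for Lss, 0.14 ± 1.09 for Dhcr7 and -0.14 ± 0.68 for Idi1 (SE, n = 2 against 2). In none of the 7 did the liver metastases lie apart from the primaries, where 15.4% of all genes lay apart on the higher and 10.2% on the lower side. Lss and Dhcr7 turned to -0.18 and -0.30 with quantile scaling. The positive values rested on PDAC primary 5. Without that library the median over the 7 genes was -0.14, against 0.88 with it, and 4 of 7 were negative. The 6 neutrophil markers summed to 8760 and 168000 RPKM in liver metastases 1 and 5, against 1120 and 12.9 RPKM in primaries 1 and 5. The hepatocyte markers summed to 1.91 and 248 RPKM in primaries 1 and 5, where primary 5 listed Alb, Ahsg, Apoc3 and Vtn at 0. The part of these cells was not tested. The primaries alone spanned 114 and 39 RPKM for Fdps, 11.8 and 0.0446 RPKM for Fdft1 and 3.47 and 0.0806 RPKM for Sqle.

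The single PDAC lung metastasis was set against the same primaries, which both PDAC comparisons share. Cyp51 had 12.8 RPKM in the lung metastasis, against 1.49 RPKM in primary 1 and listed at 0 in primary 5. The log2 difference of 3.13 ± 1.33 (SE, n = 1 against 2) had an unadjusted p of 0.0392 and did not pass (limma adjusted p = 0.328). Without PDAC primary 5 it was 2.47 ± 1.32 (n = 1 against 1, the spread taken from the other groups). In this comparison 0.584% of all genes were called, 13.8% had an unadjusted p under 0.05 and 23.9% lay above both primaries. Sqle, Lss and Dhcr7 lay below both primaries, which 34.4% of all genes did, at 1 read or listed at 0. PDAC primary 5 was itself near the floor for them, with an estimated 14 reads of Sqle, 1 read of Lss and 1.54 reads of Dhcr7. This metastasis is a single library whose spread was taken from the other groups. Its 5 lung epithelium markers summed to 35900 RPKM, against 2.13 and 0.289 RPKM in primaries 1 and 5, and its macrophage markers to 11000 RPKM, against 2420 and 768 RPKM. The tumour epithelium markers summed to 124 RPKM there, against 2080 and 15200 RPKM in primaries 1 and 5, and the part of other cells was not tested. The count of genes called here went to 0 or 1 without any 1 of the 4 BC libraries.

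Over both models together, 0 of the 7 genes passed between metastases and primary tumours. With the model as a covariate the log2 differences ran from -0.67 ± 0.57 for Lss to 0.36 ± 0.89 for Cyp51 (SE, n = 5 against 4; limma adjusted p = 0.86 to 0.999, where 0.00779% of all genes were called and 4.89% had an unadjusted p under 0.05). Sqle had a difference of 0 with an interval from -1.77 to 1.77, and Fdps 0.34 with an interval from -0.92 to 1.60. The intervals are wide, and a several-fold difference of Sqle between sites was not detectable. Without the 3 libraries with the fewest genes the differences ran from -0.87 for Dhcr7 to 0.12 for Fdft1, and 6 of 7 were negative. In the test of whether the metastasis effect differed between the models, 0 of the 7 passed: the PDAC liver effect minus the BC lung effect ranged from 0.48 ± 0.96 for Idi1 to 4.38 ± 2.41 for Fdft1, with limma adjusted p = 0.874 to 0.938 where 0% of all genes were called and 4.13% had an unadjusted p under 0.05. All 7 were positive with a median of 1.15, and so was the median of all genes, 0.53. These values rested on the 3 libraries with the fewest genes: without them Fdft1 was at 0.24 ± 1.33, 6 of 7 were positive with a median of 0.25, and the median of all genes was -0.15. With quantile scaling 5 of 7 were positive with a median of 0.39, and the median of all genes was -0.09.

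**Figure D4:**
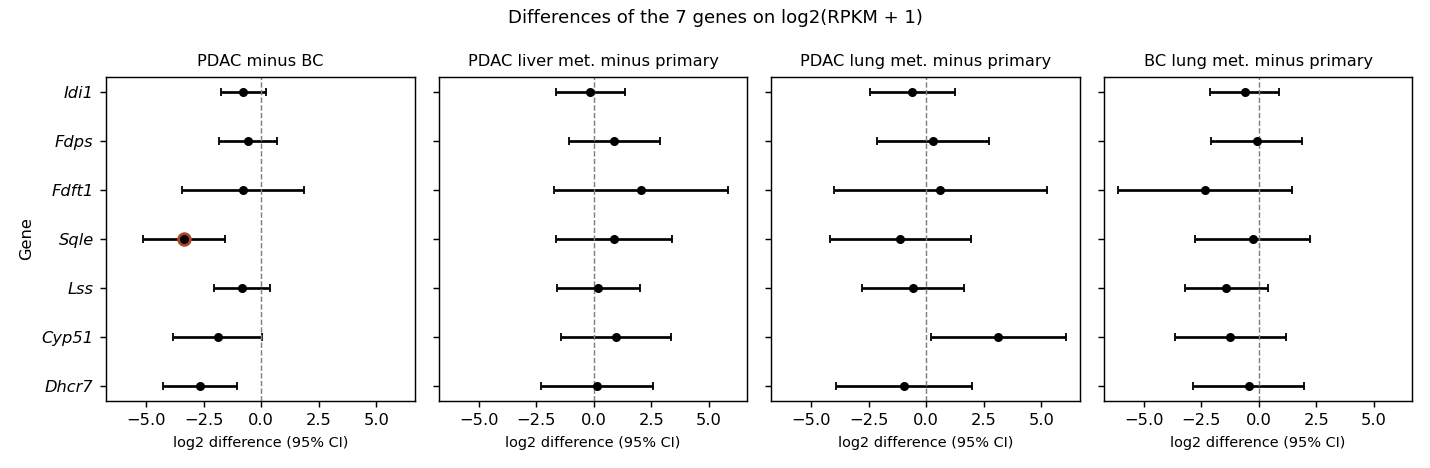
Log2 differences of the 7 genes on log2(RPKM + 1) in 4 comparisons, as points with 95% intervals from limma, with a red ring on the one gene called at an adjusted p under 0.05. Sqle in PDAC against BC is the called gene, at -3.36, and within each model every interval includes 0 except that of Cyp51 in the PDAC lung metastasis.

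The other enzymes of the pathway were read from a list of 13, of which 12 were in the table and tested. Of the 12, 0 passed between PDAC and BC, 9 were negative and 3 positive (median -0.55). The median over all tested genes was -0.21, and 42.5% of them were positive. Acat2, which makes the first intermediate, acetoacetyl-CoA, was at 6.6 and 5.04 RPKM in PDAC liver metastases 1 and 5, 0.0308 RPKM in the PDAC lung metastasis and 17.8 and 0.125 RPKM in PDAC primaries 1 and 5. In BC, lung metastases 4 and 6 had 22.3 and 1.18 RPKM, and primaries 1 and 5 had 43.6 and 20.7 RPKM. Ebp, a sterol isomerase, varied less, at 18.7 to 36 RPKM in PDAC and 21.8 to 40.5 RPKM in BC.

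Within the models the same 12 enzymes had 0 calls. Between BC lung metastases and primaries 10 were negative (median -1.49, against -0.29 over all tested genes). Sc5d, a sterol desaturase, lay below both primaries (-1.34 ± 1.49, SE, n = 2 against 2; limma adjusted p = 0.974), which 27% of all tested genes did. Between PDAC liver metastases and primaries 8 were positive (median 0.34, against 0.08 over all tested genes). Ebp, with 25.2 and 18.7 RPKM in liver metastases 5 and 1, lay below both primaries (-0.48 ± 0.78, limma adjusted p = 0.975), which 10.2% of all tested genes did. For the single PDAC lung metastasis, 34.4% of all tested genes lay below both primaries. In the PDAC lung metastasis Pmvk, the phosphomevalonate kinase, was listed at 0, against 19.9 and 54.6 RPKM in the primaries (-5.09 ± 1.15, limma adjusted p = 0.0773), and Acat2 (-2.16, limma adjusted p = 0.682) lay below both primaries without passing.

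Uptake genes were read from a list of 10, of which 8 were tested and 0 passed in any comparison. The receptor gene Scarb1, which takes up cholesterol esters, overlapped between the models, at 3.06 to 25.8 RPKM in PDAC and 0.228 to 19.3 RPKM in BC. Npc2, which moves cholesterol out of lysosomes, was at 69.1 to 138 RPKM in PDAC and 149 to 279 RPKM in BC (-1.01 ± 0.42, limma adjusted p = 0.21). Its models did not overlap, and 6.23% of all tested genes lay apart on that side. Of the 8 tested genes 4 were positive and 4 negative between the models.

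Genes that sense sterols had 0 calls of 11 in any comparison. Srebf2 was at 7.92 and 5.75 RPKM in PDAC liver metastases 1 and 5, 0.0314 RPKM in the PDAC lung metastasis and 8.53 and 0.128 RPKM in PDAC primaries 1 and 5. BC lung metastases 4 and 6 had 5.03 and 5.68 RPKM, and BC primaries 1 and 5 had 12.3 and 25.5 RPKM. The libraries with the least Srebf2 were also those with the least Sqle, and outside them the models overlapped. Insig1, which retains SREBP in the endoplasmic reticulum and is itself a SREBP target, was at 0.0241 to 39.7 RPKM in PDAC, highest in the lung metastasis, and at 4.55 to 10.3 RPKM in BC. Srebf1, the gene of the related SREBP-1, was at 4.05 to 31.9 RPKM in PDAC and 0.498 to 23.7 RPKM in BC (-0.07 ± 0.86, limma adjusted p = 0.974). In the PDAC lung metastasis Insig1 lay above both primaries (39.7 RPKM against 10 and 0.0241 RPKM in primaries 1 and 5), as Cyp51 did, without passing. Of all tested genes 23.9% lay above and 34.4% below both primaries there. Insig2, a relative of Insig1, lay below both (-4.70 ± 1.23, limma adjusted p = 0.122). Between BC lung metastases and primaries Srebf1 (-2.49 ± 1.28), Scap (-2.40 ± 1.23) and Mbtps1 (-2.23 ± 1.10) lay below both primaries (limma adjusted p = 0.974), which 27% of all tested genes did. Scap and Mbtps1 are parts of SREBP release. BC lung metastases 4 and 6 had 11.3 and 0.498 RPKM of Srebf1, 6.03 and 0 RPKM of Scap and 5.45 and 1.86 RPKM of Mbtps1. BC primaries 1 and 5 had 23.7 and 22.7, 9.59 and 17.4, and 12.6 and 28.8 RPKM of them. Metastasis 6 is one of the 3 libraries with the fewest genes.

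Of 10 tested genes of fatty acid synthesis 0 passed between the models, with 8 negative. Over all tested genes 42.5% were positive in that comparison, the share to set beside the sign counts of this and the next lists. The fatty acid synthase gene Fasn was at 0.0159 to 3.74 RPKM in PDAC and 4.18 to 16.5 RPKM in BC (-2.14 ± 0.73, limma adjusted p = 0.14). The desaturase gene Scd2 was at 0.0144 to 3.92 RPKM in PDAC and 7.81 to 34.3 RPKM in BC (-2.18 ± 0.75, limma adjusted p = 0.143). Neither overlapped between the models, and 6.23% of all tested genes lay apart on the lower side as they did. Of 8 tested genes of cholesterol efflux and storage 7 were positive between PDAC and BC, and 0 passed. Ch25h, which makes a hydroxylated cholesterol, was the one gene of these other lists called in any comparison: its value in the PDAC lung metastasis was 70.5 RPKM, and it was listed at 0 in both PDAC primaries (limma adjusted p = 0.0348). The call was lost without any 1 BC library (limma adjusted p = 0.101 to 0.108) and at a pseudocount of 0.1 (0.0554). Macrophages express Ch25h, and the macrophage and lung epithelium markers were high in that library, as given above; their part was not tested. Apoe, which carries lipid out of cells, was at 5560 and 1630 RPKM in PDAC liver metastases 1 and 5, against 911 and 130 RPKM in PDAC primaries 1 and 5 (3.12 ± 0.89, limma adjusted p = 0.423). Hepatocytes and macrophages express much Apoe. The macrophage markers summed to 11100 and 9350 RPKM in PDAC liver metastases 1 and 5, against 2420 and 768 RPKM in primaries 1 and 5. The hepatocyte markers summed to 954 and 2390 RPKM, against 1.91 and 248 RPKM, with Alb, Ahsg, Apoc3 and Vtn listed at 0 in primary 5. The part of hepatocytes and macrophages in the Apoe values was not tested. Of 8 tested genes of the prenyl branch, which draws on the product of Fdps, 0 passed and 7 were negative between the models. Rabggta, a subunit of a prenyl transferase of Rab proteins, was listed at 0 in the PDAC lung metastasis, against 36.1 and 57 RPKM in PDAC primaries 1 and 5 (-5.54 ± 1.20, limma adjusted p = 0.0709).

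Genes whose pattern over the 9 libraries was most like the mean of the 7 were ranked by Pearson correlation of log2(RPKM + 1) as a measure of likeness, with no test, since the libraries of a model share their origin and the 3 libraries with few genes share low values. The 8 highest of 12825 genes were Klc1 (0.969), 9130401M01Rik (0.966), Axl (0.961), Glb1 (0.958), Zfp704 (0.957), Hnrnpab (0.954), Pi4kb (0.951) and Hk1 (0.946). A value above 0.9 was found for 0.53% of the genes and the median was 0.21. Among the pathway lists Elovl6 stood highest at rank 141, followed by Acat2 at 183 and Mbtps1 at 199, and Srebf2 stood at rank 408. Stard4, which carries cholesterol between membranes, stood at rank 12817, near the end. Stard4 was at 4.34 to 10.5 RPKM in PDAC and 1.53 to 4.51 RPKM in BC.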

How the data were processed

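Per the labels' protocols, RNA of sorted cells was copied with the SMART-seq v4 kit and tagmented with Nextera XT. Per the submitters' processing notes, the genome build was mm9; aligner, counter and annotation are not given in the sources used here. One file was used: the authors deposited 1 table named CPM. Its columns summed to 288171 to 992077, and low values (under 20 reads) became whole multiples of 1 step within 0.02 for 62.7 to 74.2% of values after multiplication by GENCODE M21 exonic length, against 2.8 to 3.9% without it, so the deposited values were read as RPKM. Reads were estimated from that step and count as approximate, and intervals on them were not computed. Estimated reads on genes exceeded the scaling total that the step implies in every library other than BC primary 5. They were 65200000 against 36400000 in PDAC liver metastasis 5 and 127900000 against 131000000 in BC primary 5. By these estimates 1 RPKM is not the same share of reads on genes in every library.

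Libraries were grouped by title. Limma 3.58.1 in R 4.3.3 (trend, robust) was fitted to log2(RPKM + 1) of all 12832 genes that reached 1 RPKM in 2 or more of the 9 libraries, with Benjamini-Hochberg adjustment over them, two-sided, called under 0.05. Contrasts within a model, and their difference, used a fit of group means (residual degrees of freedom 4), and the others a fit of model and site (residual degrees of freedom 6). Fold changes on this scale understate low genes. The labels do not say that the BC libraries came from separate animals, so p-values reflect only library-to-library spread, which may be technical. PDAC numbers share an age and genotype label and the submitters call metastases matched, so they were taken to pair samples; deviations of PDAC primary 1 and liver metastasis 1 correlated at -0.165. No library pair held identical values (0 pairs).

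Members, lists and tests were chosen with earlier results of these data known. Named genes of other lists were those called, up to 3 per list and comparison with the largest difference among genes with libraries apart and a mean of 5 RPKM or more in the higher group, and chosen regulators (Srebf2, Srebf1, Insig1 and Scarb1 among them); a subset of these is given, and Stard4, Elovl6 and the comparison of Acat2 and Ebp between models were added after their values were seen. The 8 genes most like the members are those with the highest correlation. 1 of 64 listed genes was not analysed here, and some items are not reported here. Sc4mol stands for Msmo1. Scripts were tested on simulated data. The test of Ch25h was recomputed under the same alternatives. Copies were searched with blastn in GENCODE M21 transcripts (at least 200 bases at 90% identity). Alternatives were another pseudocount (0.1), no filter, quantile scaling, rescaling without haemoglobin, fits of the compared groups, a replicate block (crossed numbers, and the block for PDAC minus BC and for the difference of effects, added after seeing the data), 1 mean log2 value per PDAC number (also added after seeing the data), and leaving out each library or the 3 with the fewest genes.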

Additional observations from a re-analysis of the deposited data

Results flagged for a closer look

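Fdft1 was at 0.0898 RPKM in BC lung metastasis 6, far from the other BC libraries, which lay between 20.4 and 35.7 RPKM. The gap to the next value on log2(RPKM + 1), as a part of the range of the 4 values, exceeded the limit at the 95% level. Of 28 groups of libraries checked in this way for the 7 genes, it was the only one flagged. The groups share libraries, and chance flags about 1 in 20, so a single flag among 28 is no more than chance gives. The library listed 10938 genes above 0 and also held Lss at 0.00198 RPKM, and the part of its low detection in the Fdft1 value was not tested.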

How the results depend on the processing

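The difference of Sqle between PDAC and BC was negative in all 16 alternatives run (-4.68 to -2.47). Its call was lost at a pseudocount of 0.1 (-4.68) and without the filter (-3.36), where 0 of the 7 genes were called, and Dhcr7 was called besides Sqle on rescaling without haemoglobin (-3.05, 2 genes called) and with 1 mean per PDAC number (-2.74, 2 genes called). Leaving out 1 library gave 0 to 1 of the 7 called. Over all genes that comparison called 207 without the filter, 1145 without the 3 libraries with the fewest genes, 1288 with 1 mean per PDAC number (835 higher and 453 lower) and 153 to 818 with 1 library left out, against 381. The PDAC lung metastasis called 270 genes at a pseudocount of 0.1, 251 without the filter, 161 with quantile scaling (121 higher and 40 lower, against 22 and 53) and 0 to 1547 with 1 library left out, against 75. PDAC liver metastasis called 0 genes at a pseudocount of 0.1, without the filter, with quantile scaling, rescaled without haemoglobin, and without the 3 libraries, and 0 to 1032 with 1 library left out. Metastasis over both models called 0 under those settings other than quantile scaling (6), and 0 to 10 with 1 library left out, and the difference of effects 0 to 30. With the PDAC number as a replicate block, PDAC liver metastasis and metastasis over both models called 0 genes against 1 each, and the difference of effects 0 as before. Under the same block PDAC minus BC called 298 genes and 0 of the 7, since Sqle (-3.43) lost its call (adjusted p = 0.0542). The block for these last 2 comparisons, the means per number and the block with crossed numbers, which called 46 genes in PDAC liver metastasis, were added after seeing the data. The fit of the 4 BC libraries alone called 73 genes, none of the 7.

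None of the values that changed sign had passed the test. For PDAC liver metastasis they were Idi1 (0.04 at a pseudocount of 0.1, 0.01 with quantile scaling), Lss (-0.18 with quantile scaling, -0.39 without the 3 libraries), Dhcr7 (-0.30 with quantile scaling, -0.07 without haemoglobin, -0.82 without the 3 libraries) and Sqle (-0.14 without the 3 libraries). For BC lung metastasis it was Idi1 (0.30, quantile scaling). For the difference of effects they were Idi1 (-0.29 with quantile scaling, -0.04 without the 3 libraries) and Dhcr7 (-0.07, quantile scaling). For metastasis over both models they were Sqle (0.07 at a pseudocount of 0.1), Idi1 (0.12, quantile scaling), Fdps (-0.08 without haemoglobin, -0.12 without the 3 libraries), Fdft1 (0.12) and Cyp51 (-0.23, both without the 3 libraries). Between PDAC and BC it was Fdps (0.02 without the 3 libraries). With 1 library left out, values changed sign within these ranges. For BC lung metastasis they were -0.84 to 0.69 for Fdps and -0.91 to 0.05 for Dhcr7. For PDAC liver metastasis they were -0.14 to 1.91 for Sqle, -0.18 to 1.95 for Fdps, -0.75 to 0.47 for Idi1, -0.39 to 0.79 for Lss and -0.82 to 1.11 for Dhcr7. For the PDAC lung metastasis they were -1.20 to 2.41 for Fdft1 and -0.46 to 1.06 for Fdps. For the difference of effects they were -0.10 to 2.03 for Fdps, -0.14 to 1.09 for Idi1 and -0.39 to 1.54 for Dhcr7. For metastasis over both models they were -0.50 to 0.38 for Sqle, -1.44 to 1.00 for Fdft1, -0.07 to 0.69 for Fdps, -0.27 to 0.81 for Cyp51 and -0.76 to 0.07 for Dhcr7, and between PDAC and BC -2.27 to 0.22 for Fdft1. The causes were not tested.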
